A study of Mus musculus with 2 samples.

Results

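The promoters of 57 mouse genes for DNA replication and repair were examined for binding of the chromatin remodeler SRCAP. The genes were chosen by function, as 33 replication genes and 24 repair genes in 15 role groups, and stand among 21938 protein-coding genes of GENCODE mouse release 21 on the nuclear chromosomes. Promoters reached 1000 bp upstream and 500 bp downstream from each annotated transcription start site (TSS) of a gene, on mm10. A gene was bound in a replicate if a peak of that replicate overlapped such a window by at least 1 bp, a rule that assigns 1 peak to every gene whose promoter it touches.

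SRCAP was mapped by CUT&Tag, in which an antibody directs the transposase Tn5 to the protein of interest, so that the DNA around it is cut and tagged for sequencing. The cells were SYAT cells, mouse embryonic stem cells derived from the CGR8 line by way of 1 homozygous clone. Both alleles of Srcap carry YPet-AID at the 3′ end, where YPet is a fluorescent protein recognised by the anti-GFP antibody and AID is a degron that auxin activates, and the cells express the auxin receptor OsTir1 from an EF1a promoter. Both samples, of 200000 cells each, belong to 1 group, the control condition, in which the cells were kept with the auxin antagonist auxinole, whose concentration the labels and the study's methods give in different units, and were moved to medium with serum and LIF 3 days before the experiment. Neither auxin-treated cells nor cells without the tag were analysed here, so the background of the antibody is not known. The authors called 6158 peaks in replicate 1 and 12958 in replicate 2, and neither list gives a number of reads, so sequencing depth was unknown. Each peak has a score, which was read as 10 times the −log10 of the peak caller's q-value cut to a whole number. The median score was 32 in replicate 1 and 36 in replicate 2, and scores were used to describe, order and filter the peaks of a list.

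SRCAP is the ATPase of a complex that replaces histone H2A with the variant H2A.Z, which is abundant in nucleosomes next to start sites. Replication begins at origins that the origin recognition complex marks in G1 phase. The MCM helicase is loaded there and is activated in S phase, and polymerases held by a sliding clamp then copy both strands. Many genes of these steps are transcribed in late G1 and S phase under E2F factors, and embryonic stem cells, which have a short G1 phase, express them at high levels.

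The sequences of 6 promoters are given to show what DNA the peaks covered. Gins2, Orc6, Gins4 and Rpa1 held the best ranks by score of the genes bound in both replicates, and for each the central 300 bases of the stretch covered in both replicates are printed. Mcm2 and Mcm5 had no promoter peak and are printed from 250 bases upstream of the main TSS. All are read on the strand of the gene, 5′ to 3′, from GRCm38, the assembly also called mm10. Capitals mark matches on either strand to the words searched: CCAAT for NFY, GGGCGGGG for SP factors, CCGGAAGT for ETS factors, AAGATGGC for YY1, GCATGCGC for NRF1, CTCGCGAG for ZBTB33, TTTGAA for the CHR element, and any of TTTCCCGC, TTTGGCGC, TTTCGCGC and TTTGCCGC for E2F. No word contains another.
Gins2: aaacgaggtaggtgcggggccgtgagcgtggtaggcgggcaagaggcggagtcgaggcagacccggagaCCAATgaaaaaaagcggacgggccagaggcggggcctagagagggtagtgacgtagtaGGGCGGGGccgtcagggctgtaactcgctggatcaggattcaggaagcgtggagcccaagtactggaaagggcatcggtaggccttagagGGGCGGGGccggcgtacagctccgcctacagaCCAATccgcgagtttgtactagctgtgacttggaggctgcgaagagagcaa
Orc6: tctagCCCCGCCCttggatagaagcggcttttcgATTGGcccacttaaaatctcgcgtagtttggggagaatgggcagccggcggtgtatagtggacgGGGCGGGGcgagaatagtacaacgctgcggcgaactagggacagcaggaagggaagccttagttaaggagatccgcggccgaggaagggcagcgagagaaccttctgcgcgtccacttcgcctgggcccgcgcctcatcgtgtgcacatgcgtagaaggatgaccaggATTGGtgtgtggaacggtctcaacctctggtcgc
Gins4: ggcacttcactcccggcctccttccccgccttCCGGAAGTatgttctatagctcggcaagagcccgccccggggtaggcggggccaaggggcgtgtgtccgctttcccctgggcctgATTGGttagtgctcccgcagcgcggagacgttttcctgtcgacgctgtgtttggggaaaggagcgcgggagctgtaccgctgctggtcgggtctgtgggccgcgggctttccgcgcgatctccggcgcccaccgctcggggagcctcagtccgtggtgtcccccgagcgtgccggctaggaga
Rpa1: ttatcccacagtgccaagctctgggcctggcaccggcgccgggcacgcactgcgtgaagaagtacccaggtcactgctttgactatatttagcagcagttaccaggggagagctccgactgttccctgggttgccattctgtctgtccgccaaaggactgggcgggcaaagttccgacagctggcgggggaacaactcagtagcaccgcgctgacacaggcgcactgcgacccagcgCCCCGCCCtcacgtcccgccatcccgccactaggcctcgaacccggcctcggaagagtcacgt
Mcm2: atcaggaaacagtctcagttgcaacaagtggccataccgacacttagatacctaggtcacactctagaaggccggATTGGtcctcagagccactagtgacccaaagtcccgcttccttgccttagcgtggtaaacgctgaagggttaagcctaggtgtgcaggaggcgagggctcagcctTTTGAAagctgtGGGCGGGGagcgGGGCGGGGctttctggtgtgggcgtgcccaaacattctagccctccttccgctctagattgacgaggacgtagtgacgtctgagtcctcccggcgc
Mcm5: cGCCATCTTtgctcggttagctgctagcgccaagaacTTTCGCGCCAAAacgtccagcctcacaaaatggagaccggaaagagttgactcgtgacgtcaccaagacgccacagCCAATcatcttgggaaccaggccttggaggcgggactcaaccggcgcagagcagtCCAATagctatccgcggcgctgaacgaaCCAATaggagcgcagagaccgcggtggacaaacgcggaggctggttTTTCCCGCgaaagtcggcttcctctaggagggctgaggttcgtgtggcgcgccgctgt
The Gins2 stretch is chr8:120589151-120589450 on the minus strand, that of Orc6 is chr8:85299544-85299843 on the plus strand, that of Gins4 is chr8:23237523-23237822 on the minus strand and that of Rpa1 is chr11:75348447-75348746 on the minus strand. The Mcm2 window is chr6:88898731-88899030 on the minus strand and the Mcm5 window is chr8:75109319-75109618 on the plus strand. With the main TSS counted as 0, the Gins2 stretch spans −146 to 153, that of Gins4 −163 to 136 and that of Orc6 −247 to 52. The Rpa1 stretch lies wholly upstream, from −422 to −123. The bound stretches of Gins2 and Orc6 each held 2 matches to the NFY word and 2 to the SP word, that of Gins4 held 1 ETS and 1 NFY match, and that of Rpa1 held 1 SP match. The unbound Mcm5 window held 7 matches, 3 of them to E2F words, of which those starting at bases 38 and 42 overlap each other. A match is a run of letters and was not tested as a binding site.

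Counted as 1 set, promoters of replication and repair genes held an SRCAP peak more often than promoters of coding genes at large, but the repair genes alone stood near the coding share in replicate 1 and in the count for both replicates. In replicate 1, 19 of 57 genes were bound (33.3%, 95% Wilson interval 22.5 to 46.3%), against 15.7% of all coding genes. In replicate 2, 35 of 57 were bound (61.4%, 48.4 to 72.9%), against 30.4%. Both replicates bound 17 of 57 (29.8%, 19.5 to 42.7%), against 12.0%. The intervals cover counting error only. The mean over the replicates was 47.4% ± 19.8 (SD, n = 2) for the replication and repair genes and 23.0% ± 10.4 (SD, n = 2) for coding genes, and their share was 2.12 times that of coding genes in replicate 1 and 2.02 times in replicate 2. The lower of their values, 33.3%, lay above the higher of the coding values, 30.4%. The sets differed by 17.6 percentage points in replicate 1 and by 31.0 in replicate 2, beside an SD between replicates of 19.8 points for the 57 genes. With 1 group and no read numbers, no test of binding was possible. Of the other genes, 2 were bound in replicate 1 only, 18 in replicate 2 only and 20 in neither. Of those bound in replicate 1, 17 of 19 (89.5%, 68.6 to 97.1%) were also bound in replicate 2, against 76.7% of coding genes, which lay inside the interval. The plot of shares by gene set shows these values.

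**Figure D1:**
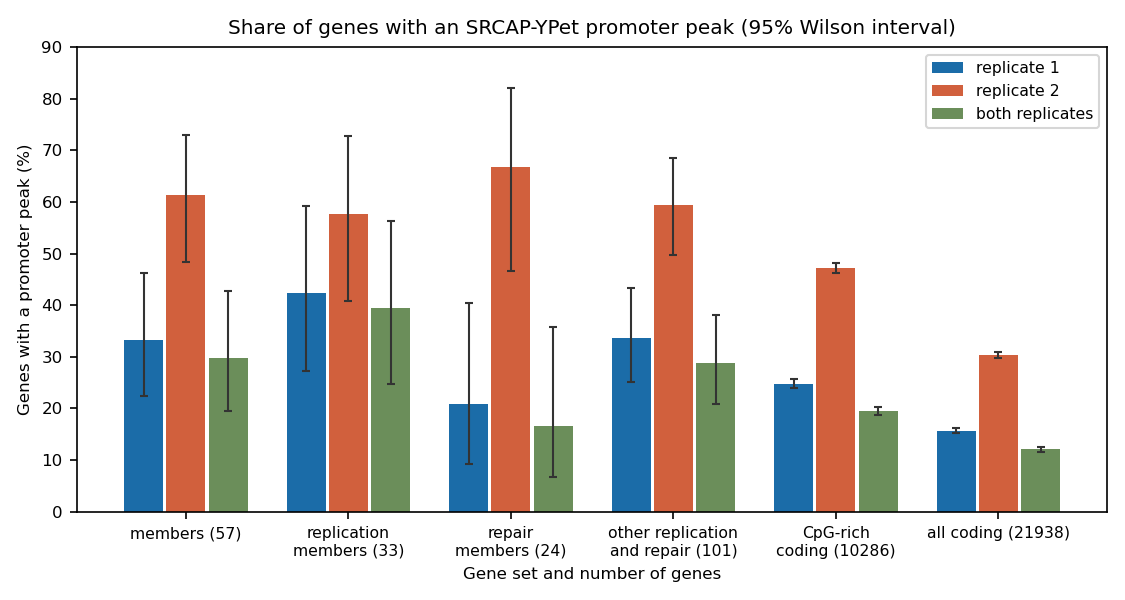
Percentage of genes bound (blue, replicate 1, orange, replicate 2, green, both) for 6 gene sets with the number of genes in brackets, where error bars are 95% Wilson intervals. The replication and repair genes reached 33.3%, 61.4% and 29.8%, the 10286 coding genes with a CpG-rich promoter 24.8%, 47.3% and 19.6%, and all coding genes 15.7%, 30.4% and 12.0%.

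By count, replication genes were bound in both replicates more often than repair genes. Of 33 replication genes, 14 were bound in replicate 1, 19 in replicate 2 and 13 in both (39.4%, 24.7 to 56.3%). Of 24 repair genes, 5 were bound in replicate 1, 16 in replicate 2 and 4 in both (16.7%, 6.68 to 35.9%). The coding shares of 15.7%, 30.4% and 12.0% lay below all 3 intervals of the replication genes (27.2 to 59.2%, 40.8 to 72.8% and 24.7 to 56.3%). For the repair genes the coding share lay below the interval in replicate 2 (46.7 to 82.0%), and inside it in replicate 1 (9.24 to 40.5%) and in both. The classes stood in the opposite order in replicate 2, at 57.6% of replication and 66.7% of repair genes. The intervals of the classes overlapped in both replicates and in the count for both, so the order of the classes is not separated from counting error. The plot of scores by role gives every gene.

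**Figure D2:**
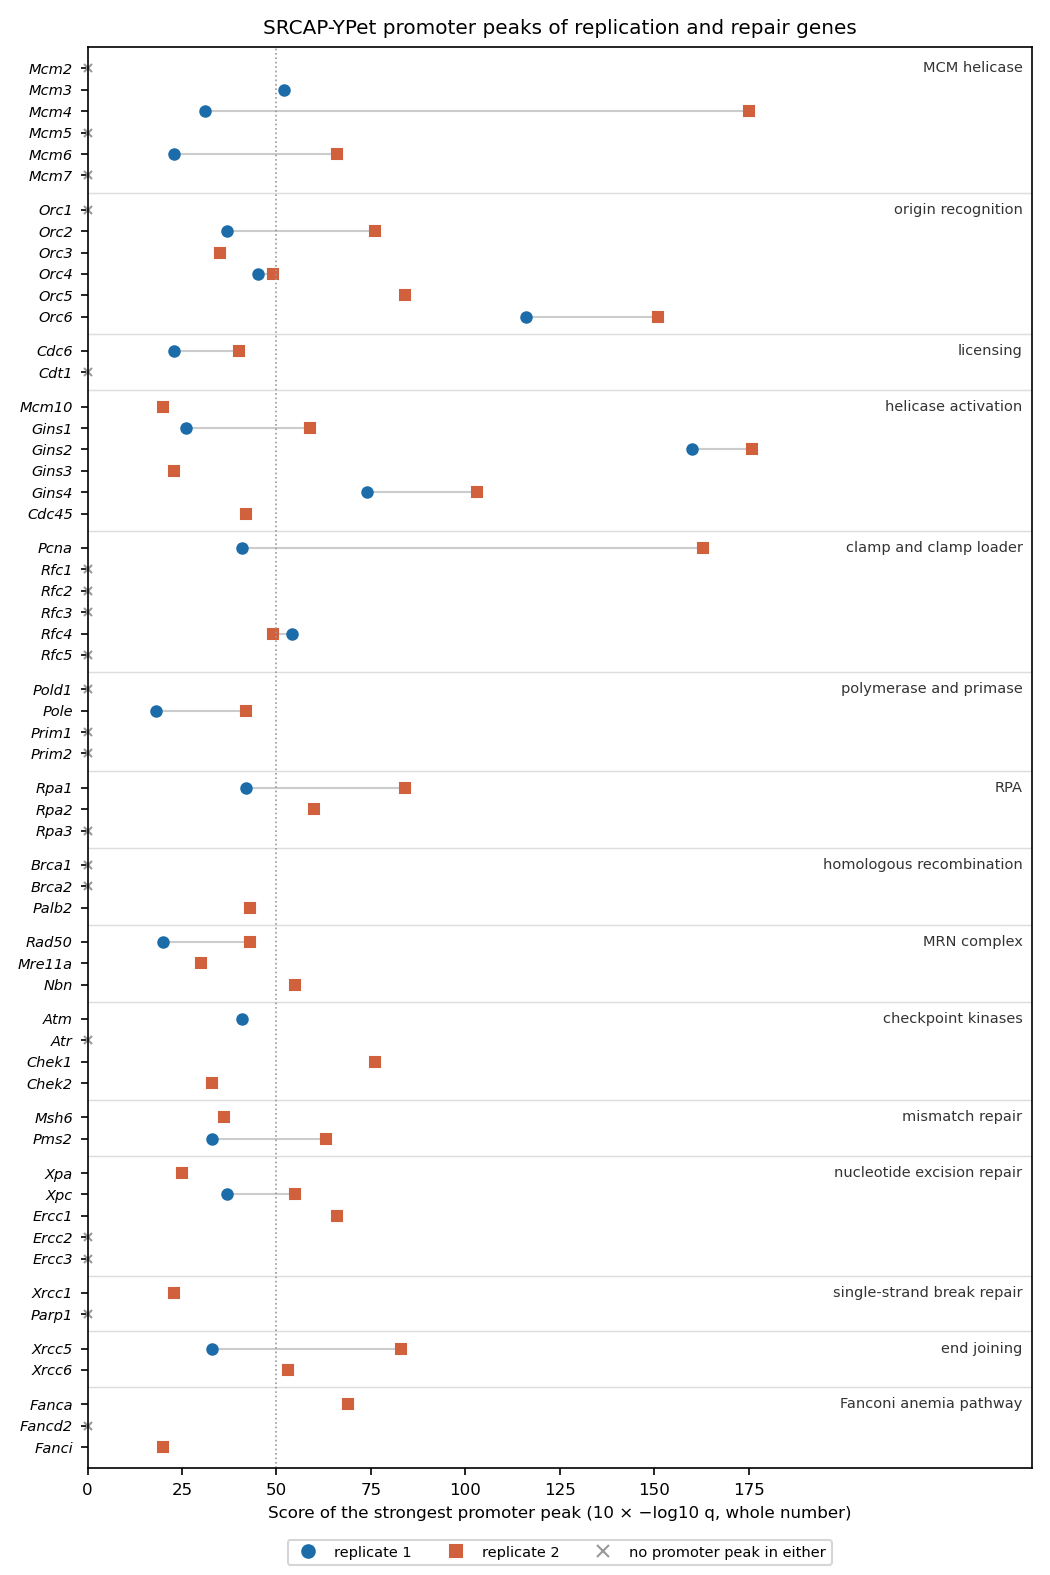
Score of the strongest promoter peak of each of the 57 genes, by role group, with circles for replicate 1, squares for replicate 2, a grey line joining the replicates of 1 gene, crosses at 0 for genes with no promoter peak in either, and a dotted line at a score of 50. Gins2 and Orc6 scored 160 and 116 in replicate 1 and 176 and 151 in replicate 2, all 6 genes of helicase activation had a peak, and 4 of the 5 clamp loader genes had none.

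Among the origin recognition genes, whose products form the complex that binds origins, 3 of 6 were bound in both replicates, against 12.0% of coding genes. Orc6 was next to the best by rank of the 57 genes. Its peak scored 116 in replicate 1 and 151 in replicate 2, at percentiles of 97.6 and 98.3 within the lists. The peaks were 437 and 631 bp wide and shared chr8:85299509-85299878. Each midpoint was measured from the annotated TSS nearest to it, which differed between the replicates, and lay 38 bp downstream in replicate 1 and 69 bp upstream in replicate 2. The same peaks lay in the promoter of Vps35, the neighbouring gene of the retromer complex. Orc4 scored 45 and 49, and its peaks of 481 and 443 bp shared chr2:48949021-48949331, which also lies in the promoter of Mbd5, with midpoints 140 bp downstream and 1 bp upstream of the TSS nearest to each, again not the same one. Orc2 scored 37 and 76, with peaks of 327 and 349 bp that shared chr1:58504708-58504947 and had midpoints 54 and 152 bp downstream of the nearest TSS. Orc5 and Orc3 had a peak in replicate 2 only, at scores of 84 and 35. Orc1, the largest subunit, had none, and its nearest peak was 14736 bp from a promoter window.

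Of the 6 genes for the subunits of the MCM helicase, which unwinds DNA at the fork, 2 were bound in both replicates and 3 in neither, against 12.0% and 66.0% of coding genes. Mcm4 scored 31 in replicate 1 and 175 in replicate 2, at percentiles of 49.3 and 99.0, so it was near the middle of one list and near the top of the other. Its peaks, 340 and 415 bp wide, shared chr16:15637589-15637923, and their midpoints lay 359 and 316 bp upstream of the Mcm4 TSS. Prkdc, the catalytic subunit of DNA-dependent protein kinase in end joining, starts 489 bp away on the opposite strand, and the same peak counted for both genes. In both replicates the peak contained the Prkdc TSS and no Mcm4 TSS. Mcm6 scored 23 and 66, with peaks of 251 and 593 bp that shared chr1:128359615-128359865, 76 and 81 bp upstream of the TSS by midpoint. Mcm3 was bound in replicate 1 only, at a score of 52. Its nearest peak in replicate 2 was 69272 bp away, although that list is the longer. Mcm2, Mcm5 and Mcm7 had no promoter peak in either list. The nearest peak to an Mcm2 window lay 2502 bp away in replicate 2, the smallest distance among the 20 unbound genes, and that to an Mcm7 window lay 9098 bp away in both replicates.

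Of the 2 licensing genes, Cdc6, which helps the origin recognition complex load the helicase, was bound in both replicates at scores of 23 and 40. Its peaks of 381 and 258 bp shared chr11:98907781-98908037, with midpoints 2 bp upstream and 61 bp downstream of the nearest TSS. Cdt1, its partner in loading, had no promoter peak, and its nearest peak was 10236 bp away in replicate 1.

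All 6 genes of helicase activation had a promoter peak in at least replicate 2, and 3 of the 4 genes of GINS, the complex that joins Cdc45 and MCM in the active helicase, were bound in both replicates. The coding shares were 30.4% in replicate 2 and 12.0% in both, and these groups of 6 and 4 genes were not tested against them. Gins2 had the best rank of the 57 genes, with scores of 160 and 176, ranks 60 and 124 in the lists. Its peaks were 329 and 440 bp wide and shared chr8:120589137-120589465, so the whole replicate 1 peak was covered in replicate 2, with midpoints 3 and 53 bp downstream of the TSS. Gins4 scored 74 and 103, next by rank after Orc6, and its peaks of 470 and 432 bp shared chr8:23237457-23237888 and had midpoints 33 and 14 bp upstream of the TSS. Neither Gins2 nor Gins4 shared its peak with another coding promoter. Gins1 scored 26 and 59, with peaks of 471 and 311 bp that shared chr2:150909625-150909876, 243 and 104 bp downstream of the nearest TSS. The fourth GINS gene, Gins3, and the activation genes Cdc45 and Mcm10 had a peak in replicate 2 only. Their scores were 23, 42 and 20, and none reached the median of 55 of the 35 genes bound in that replicate.

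The sliding clamp gene and 1 of 5 genes of its loader were bound in both replicates, and the other 4 loader genes in neither, as were 66.0% of coding genes. Pcna, which encodes the clamp that tethers polymerases, scored 41 in replicate 1 and 163 in replicate 2. Its peaks were among the broadest of the replication genes, at 679 and 696 bp, and shared chr2:132252693-132253364, with midpoints 58 and 74 bp upstream of the nearest TSS. Rfc4, a subunit of the clamp loader, scored 54 and 49, at percentiles of 83.3 and 70.1 within the lists. Its peaks of 474 and 442 bp shared chr16:23127784-23128139, 166 and 268 bp upstream of the TSS by midpoint. The loader genes Rfc1, Rfc2, Rfc3 and Rfc5 had no promoter peak in either list. Rfc3 was the farthest from any peak of the 20 unbound genes, at 274687 bp in both replicates.

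Of 4 polymerase and primase genes, Pole, the catalytic subunit of the leading-strand polymerase, was bound in both replicates, at scores of 18 and 42, and it had the worst rank of the genes bound in both. Pold1, the catalytic subunit of polymerase delta, and the primase genes Prim1 and Prim2 were unbound. The nearest peak to Pold1 was 3401 bp away in replicate 2. Of the genes for RPA, which coats single-stranded DNA, Rpa1 scored 42 and 84. Its peaks of 400 and 544 bp shared chr11:75348397-75348796, upstream of the TSS by 273 and 201 bp at the midpoint and inside the promoter of Smyd4 on the other strand. Rpa2 had a peak in replicate 2 only, at a score of 60, of which 41.0% was soft-masked repeat sequence, and Rpa3 had none.

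The 4 repair genes bound in both replicates were Xpc, Pms2, Xrcc5 and Rad50, a share of 16.7% whose interval held the coding share of 12.0%. Xpc, which recognises damage in nucleotide excision repair, scored 37 and 55, with peaks of 334 and 390 bp that shared chr6:91515651-91515900, 61 and 38 bp downstream, by midpoint, of the TSS nearest to each peak, not the same one, and also in the promoter of Lsm3. Pms2, a mismatch repair endonuclease, scored 33 and 63, with peaks of 561 and 369 bp that shared chr5:143909520-143909882, 164 and 266 bp upstream by midpoint and also in the promoter of Aimp2. Xrcc5, a subunit of the Ku complex that binds broken ends, scored 33 and 83, with peaks of 412 and 548 bp that shared chr1:72307102-72307486, 113 and 208 bp upstream by midpoint. Soft-masked repeat sequence made up 28.4% and 42.7% of these peaks. Rad50, of the MRN complex that senses and trims breaks, scored 20 and 43. Its peaks did not overlap each other, one lying 344 bp downstream and the other 135 bp upstream, by midpoint, of different TSSs, each the nearest, and it is described for that reason, chosen after its values were seen.

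Of the 17 bound repair genes, 12 appeared in replicate 2 only, and so did 4017 of the 7462 bound coding genes. The strongest of these were Chek1, the checkpoint kinase downstream of ATR, at 76, Fanca of the Fanconi anemia core complex at 69, and Ercc1, an endonuclease subunit of excision repair, at 66. Nbn of the MRN complex scored 55 and Xrcc6, the other Ku subunit, 53. These 5 genes belong to 5 different role groups. Palb2, which joins BRCA1 and BRCA2 in recombination, scored 43, and the mismatch recognition gene Msh6 scored 36. Chek2, a kinase downstream of ATM, scored 33, and the nuclease gene Mre11a scored 30. The excision repair scaffold gene Xpa scored 25 at the stronger of its 2 peaks, Xrcc1, a scaffold of single-strand break repair, scored 23, and Fanci, whose product is ubiquitinated together with FANCD2, scored 20. The Fanci peak lay at an internal TSS, 6860 bp downstream of the main one. Atm, the kinase that responds to double-strand breaks, was bound in replicate 1 only, at a score of 41, by a peak that also lay in the promoter of Npat.

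Neither replicate had a promoter peak at 20 of 57 genes (35.1%), 7 of them for repair, against 66.0% of coding genes. The 7 repair genes were Brca1 and Brca2 of homologous recombination, the kinase gene Atr, Ercc2 and Ercc3, which encode the helicases of the repair factor TFIIH, Parp1, which senses strand breaks, and Fancd2, the partner of FANCI. Over all 20 unbound genes, the smaller of the distances from a promoter window to the nearest peak in either list had a median of 29917.5 bp, and 16 of them had no peak within 10000 bp. Peaks in the gene body outside the promoter were found in 0 of 57 genes in replicate 1 (0 to 6.31%), against 5.55% of coding genes, and in 5 of 57 in replicate 2 (8.77%, 3.81 to 18.9%), against 10.8%, so the coding shares lay inside both intervals. With depth unknown, a gene without a peak is one where none was called, which does not show that SRCAP is absent.

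The scores of the bound genes stood near or above those of other bound promoters. The median score of the strongest promoter peak was 37 for the 19 replication and repair genes bound in replicate 1, against 36 for bound coding genes. In replicate 2 it was 55 for 35 genes, against 44. As a percentile within its list, the median was 63.2 against 61.2 in replicate 1 and 75.7 against 63.7 in replicate 2. Bound coding genes with a CpG-rich promoter had median scores of 37 and 46, at median percentiles of 63.2 and 66.5. Peaks of the 17 genes bound in both replicates had a median score of 66 in replicate 2, and those of the 18 genes bound in replicate 2 only had a median of 39. Coding genes had medians of 59 and 37 there. In replicate 1 the order was the opposite for the replication and repair genes, with a median of 37 in the 17 bound in both and 46.5 in the 2 bound in replicate 1 only, whereas coding genes had 39 and 29. A score of at least 50 was reached by 5 genes in replicate 1, all for replication (Mcm3, Orc6, Gins2, Gins4 and Rfc4), which is 26.3% of the bound ones, against 26.8% of bound coding genes. In replicate 2 it was reached by 19, of which 11 were for replication and 8 for repair, or 54.3% against 43.0%. A fixed score stands for a different rank in each list.

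Peaks were centred on start sites. The midpoint lay within 300 bp of the nearest TSS in 17 of 19 genes in replicate 1 and 34 of 35 in replicate 2 (89.5% and 97.1%, against 81.6% and 80.9% of bound coding genes). The median distance was 76 and 81 bp in either direction, against 135 and 136 bp. A TSS lay inside the peak in 78.9% and 82.9% of bound genes, against 61.6% and 66.8%. The replication and repair genes have a median of 6 annotated start sites and coding genes 3, so a TSS is nearer to any point of their promoters, and the part of this in the shorter distances was not tested. With 1 main TSS per gene the shares bound were 33.3%, 57.9% and 29.8%, against 13.8%, 27.0% and 10.7% of coding genes. The signed midpoint had a median of −10 bp in replicate 1 and −14 bp in replicate 2, where negative is upstream. The peaks of both replicates overlapped each other in 16 of the 17 genes bound in both, sharing 240 to 672 bp, against 93.1% of such coding genes. Widths had a median of 412 and 415 bp, against 356 and 421 bp. The plot of peak extents shows the 37 bound genes.

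**Figure D3:**
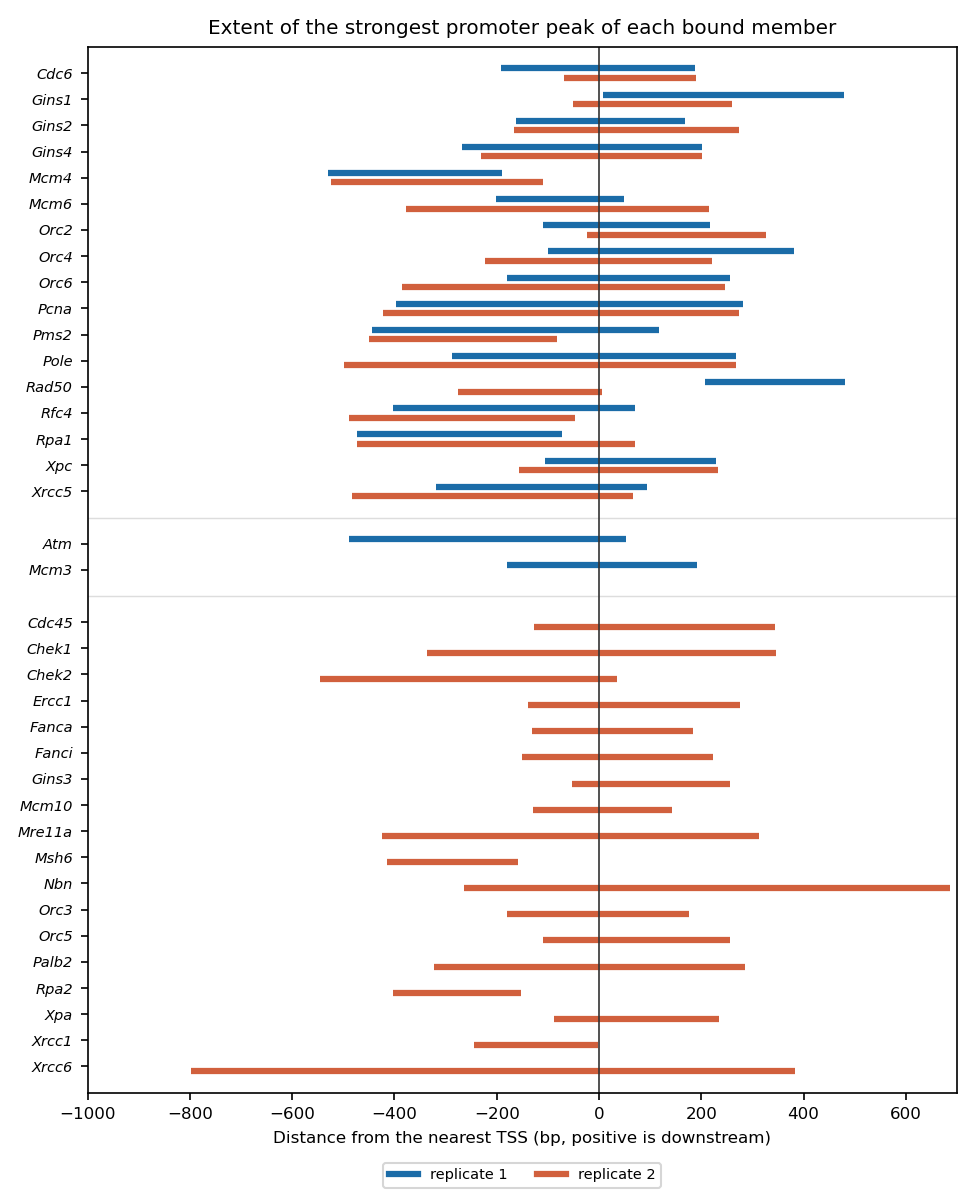
Extent of the strongest promoter peak of each of the 37 bound genes relative to the nearest annotated TSS, in bp with positive values downstream, with replicate 1 above replicate 2 for each gene and the genes grouped as bound in both, in replicate 1 only and in replicate 2 only. Most peaks span the TSS, those of Mcm4 lie upstream of it, and the pair of Rad50 peaks does not overlap.

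Head-to-head gene pairs were common among these genes. An opposite-strand coding TSS lay within 1000 bp upstream of the main TSS in 17 of 57 genes (29.8%), against 8.49% of coding genes, at distances of 13 to 489 bp with a median of 118 bp. All 12 such genes bound in replicate 2 shared their peak with another coding promoter. The definitions nearly require this, since the promoter windows of partners overlap at these distances. Over all bound genes, the peak also lay in another coding promoter in 8 of 19 in replicate 1 and 14 of 35 in replicate 2 (42.1% and 40.0%), against 23.8% and 22.0% of bound coding genes. Besides the neighbours already named, these were Ufd1 for Cdc45, Rars2 for Orc3, Pxmp2 for Pole, Dctn5 for Palb2, Ankrd49 for Mre11a, Hscb for Chek2, Pinlyp for Xrcc1 and Desi1 for Xrcc6. Binding of the replication or repair gene and of its neighbour cannot be told apart at these promoters. The other 22 of 37 bound genes had a peak in no other coding promoter.

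Most replication and repair promoters were CpG-rich, a class in which coding promoters were bound in both replicates in 19.6%, against 5.42% of other coding promoters. The ratio of observed to expected CpG over 300 bp around the main TSS, 250 of them upstream, had a median of 0.893 in the replication and repair genes and 0.557 in coding genes, and it was at least 0.6, called CpG-rich here, in 49 of 57 (86.0%) against 46.9%. Among CpG-rich promoters, the shares bound were 32.7% in replicate 1, 59.2% in replicate 2 and 30.6% in both for the replication and repair genes, against 24.8%, 47.3% and 19.6% of the 10286 coding genes. The coding values lay inside the 95% Wilson intervals of the 49 genes (21.2 to 46.6%, 45.2 to 71.8% and 19.5 to 44.5%), the last at the lower end, whereas over all promoters they lay outside. Genes that were CpG-rich and without a divergent neighbour were a narrower class. Of these, 9, 18 and 9 of 33 were bound (27.3%, 54.5% and 27.3%), against 23.2%, 44.9% and 17.9% of 8680 coding genes. The coding values lay inside the intervals of the 33 genes (15.1 to 44.2%, 38.0 to 70.2% and 15.1 to 44.2%). Of the 8 genes whose promoter was not CpG-rich, 3, 6 and 2 were bound (intervals 13.7 to 69.4%, 40.9 to 92.9% and 7.15 to 59.1%), against 7.68%, 15.4% and 5.42% of such coding genes, which lay below the intervals. The class was read at the main TSS, whereas a peak at any TSS counted, so the bound DNA need not be the DNA classed. Among the 8, the peaks of Ercc1 and Xrcc1 lay outside the 300 bp, with midpoints 451 and 738 bp downstream of the main TSS. Mcm10 and Xpa, at ratios of 0.596 and 0.573, were just under the limit. The differences in the CpG-rich and the other class were not compared with each other. Within the replication and repair genes, the median ratio was 0.896 in those bound in both replicates and 0.926 in the unbound ones, 19 of 20 of which were CpG-rich. The part of CpG content in the higher share was not tested.

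**Figure D4:**
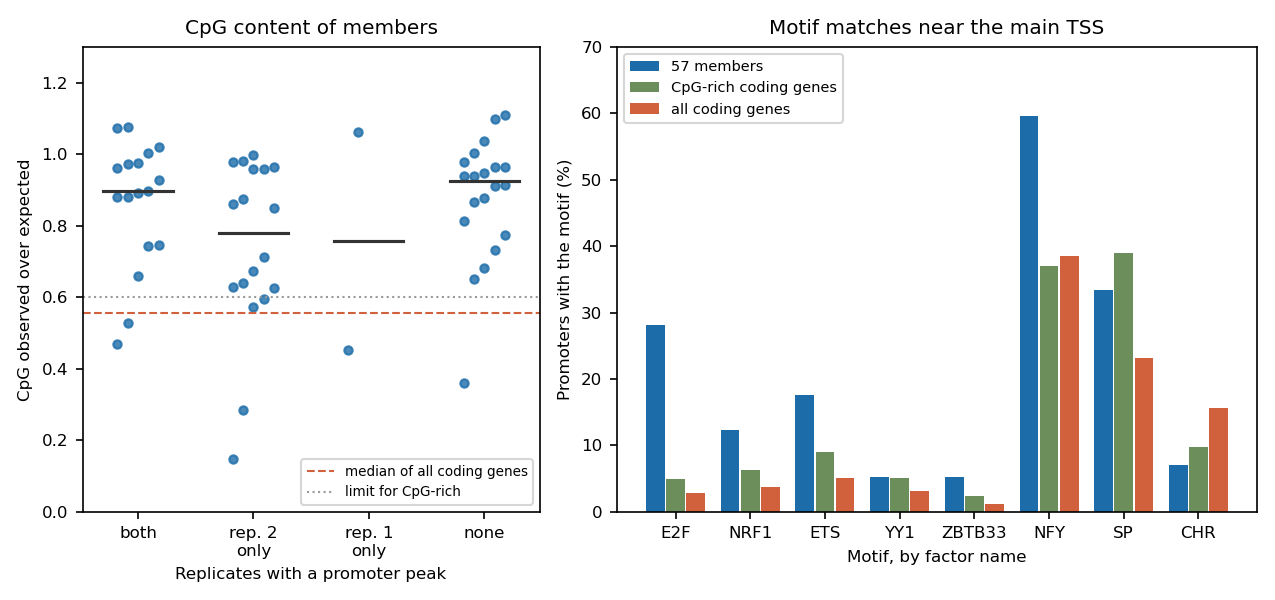
Left, ratio of observed to expected CpG near the main TSS for each of the 57 genes by the replicates with a promoter peak, with black lines at the group medians, a dashed line at the median of all coding genes (0.557) and a dotted line at 0.6. Right, percentage of promoters with a match to the words of each motif, in which E2F words were in 28.1% of the 57 genes and 2.88% of all coding genes.

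E2F words were more frequent in these promoters than in other coding promoters, with similar shares in the bound and the unbound among them. In the same 300 bp, an E2F word was present in 16 of 57 genes (28.1%), against 2.88% of all coding genes and 4.91% of CpG-rich ones. Its share was 5 of 17 in genes bound in both replicates (Cdc6, Gins1, Mcm4, Mcm6 and Pole) and 6 of 20 in unbound genes (Brca2, Cdt1, Fancd2, Mcm5, Orc1 and Rfc3). The CCAAT word of NFY was in 34 of 57 (59.6%), against 38.5% of coding genes and 37.1% of CpG-rich ones, and in 11 of 17 bound in both and 10 of 20 unbound. ETS words were in 17.5%, against 5.03% of coding genes and 8.96% of CpG-rich ones, and NRF1 words in 12.3%, against 3.73% and 6.21%. ZBTB33 words were in 3 of 57 (5.26%), against 1.20% and 2.40%, and YY1 words in 3 of 57 (5.26%), against 3.09% and 5.06%, so that the YY1 share stood close to that of CpG-rich coding genes. SP words were in 33.3%, between the 23.2% of all coding genes and the 38.9% of CpG-rich ones, and the CHR word in 7.02%, against 15.6% and 9.75%. The 2 best-ranked promoters, those of Gins2 and Orc6, held SP and NFY words and no E2F word in the same window. No match says only that these letters are not in the window.

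The rest of the pathway had shares close to those of the 57 genes. A written list of 101 other replication and repair genes had 34 bound in replicate 1 (33.7%), 60 in replicate 2 (59.4%) and 29 in both (28.7%, 20.8 to 38.2%). Its classes stood the other way round, with 7 of 35 replication genes and 22 of 66 repair genes bound in both. Over the 57 genes and this list, neither class was ahead throughout. The best rank was that of Msh3, a mismatch recognition gene, with scores of 120 and 243, next to Fancl of the Fanconi anemia core complex with 74 and 100 and the glycosylase gene Neil3 with 61 and 76. The mismatch repair gene Pms1 scored 55 and 98, Rad23b, the partner of XPC, 47 and 107, Brip1, a helicase that binds BRCA1, 68 and 57, and the damage sensor gene Ddb2 67 and 57. Bard1, the partner of BRCA1, scored 38 and 121, while Brca1 itself was unbound. Xrcc4 and Lig4, which work together in sealing broken ends, scored 41 and 65 and 40 and 44, and the excision nuclease gene Ercc5 scored 43 and 52. Clspn, the adaptor that activates CHK1, scored 84 and 44, and Slx4, a nuclease scaffold, scored 46 and 41. Chtf18, of an alternative clamp loader, scored 33 and 52, and Pole4, an accessory subunit of the leading-strand polymerase, scored 32 and 51. These 15 genes are the best by rank of the 29.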

How the data were processed

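For each of the 2 samples the authors deposited a list of peaks with chromosome, start, end and a score. The labels name STAR, Picard and MACS2 and the builds mm10 and dm6. Under a heading for ChIP-seq and CUT&Tag together, the study's methods describe unique alignments, removal of duplicates and of reads off the nuclear chromosomes, downsampling to equal Drosophila reads and a blacklist. Each list holds 6 mitochondrial peaks, which the chromosome filter would have removed. The study's reporting form gives a MACS2 command with an input control, without naming CUT&Tag, and whether it was used for these lists is not given in the sources used here. The deposited scores are whole numbers of at least 13 in both lists, the value that a q-value of 0.05 gives, and depth was unknown.

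Peaks were overlapped with promoters of GENCODE mouse release 21 in Python 3.11.15 with numpy 2.4.6 and scipy 1.17.1. The strongest promoter peak stood for a gene. The main TSS was that of the coding transcript with the best APPRIS and support level, then the longest. Sequence came from GRCm38. No test was made, since there is 1 group without read numbers. Replicates are those of the titles, and the study's reporting form describes its replicates in general as independently cultured cells. Every gene of the set is described by role, those bound in both replicates with full values for up to 15 by the worse of their ranks. The genes, the other lists and the alternatives were chosen with earlier results of these data known. On simulated data, 300 of 300 planted overlaps were called and 100 of 100 peaks at a window's edge without overlap were not. Alternatives changed the score minimum, overlap, window, TSS set, list length, repeats, CpG class and replicates.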

Additional observations from a re-analysis of the deposited data

How the results depend on the processing

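Of 89 alternative values for 20 results, 66 were classed as the same, 22 as moved and 1 changed sign. A count was classed as moved only beyond a ratio of 1.5, so the 66 were not all close to the reported value. Coding genes bound in replicate 2 by a peak that contains a TSS, 4513 against 6660, were classed as the same. With a score of at least 50, fewer genes were bound. Of the 57 genes, 5, 19 and 3 were bound in replicate 1, replicate 2 and both (8.77%, 33.3% and 5.26%). Coding genes fell to 923, 2866 and 655 (4.21%, 13.1% and 2.99%), and the 101 other pathway genes to 12, 34 and 6 (11.9%, 33.7% and 5.94%). No interval was computed at this cut, so the separation of these shares from the coding shares was not tested. Counting only peaks that contain a TSS, 11 of the 57 genes were bound in both (19.3%), with 2135 coding genes in replicate 1 (9.73%) and 1530 in both (6.97%). With replicate 2 reduced to its 6158 strongest peaks, 26 of the 57 genes (45.6%) and 4206 coding genes (19.2%) were bound there, and the width median was 426.5 bp. The mean of the median midpoints, −12 bp, became 0.5 bp from the main TSS, where the side changed, and −5.5 bp at scores of at least 50. The share downstream, 42.5%, became 46.8% and 53.7%. CpG-rich promoters were 71.9% of the 57 genes and 38.8% of coding genes over the whole promoter window of the main TSS, and 66.7% and 32.9% at a ratio of 0.75. Divergent coding genes were 9.73% within 2000 bp. Leaving out a replicate gave 33.3 to 61.4% of the 57 genes bound, 15.7 to 30.4% of coding genes and 33.7 to 59.4% of the other pathway genes, score percentiles of 63.2 to 75.7, widths of 412 to 415 bp, midpoints of −14 to −10 bp and 42.1 to 42.9% downstream. No paired analysis was possible because both samples belong to the same group.

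Without read numbers, the difference between the lists of 6158 and 12958 peaks and a difference in depth cannot be told apart. Counts for both replicates cannot exceed those of replicate 1, the shorter list. Without an untagged or auxin-treated library, the share of promoter peaks that anti-GFP gives in the absence of SRCAP-YPet was not measured here. Both samples come from 1 line.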

Other observations

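Pluripotency genes, listed as a check of the cell type, had a promoter peak in 1 of 12 in replicate 1, 5 of 12 in replicate 2 and 1 of 12 in both, against 15.7%, 30.4% and 12.0% of coding genes, which lay inside the 95% Wilson intervals of the 12 genes (1.49 to 35.4%, 19.3 to 68.0% and 1.49 to 35.4%). Zfp42 was bound in both replicates, at scores of 23 and 64. Tfcp2l1, Sox2, Pou5f1 and Utf1 had a peak in replicate 2 only, at scores of 60, 49, 29 and 28. Nanog, Klf4, Esrrb, Dppa3, Dppa4, Dppa5a and Tdgf1 had no promoter peak. The lists hold no expression values, so these genes describe where SRCAP peaks lie and do not identify the cells.

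Chromosome 8 carried 7 of the 57 genes, among them Gins2, Orc6 and Gins4, the 3 best by rank, and 3, 5 and 3 of the 7 were bound in replicate 1, replicate 2 and both. Coding genes of chromosome 8 were bound in 26.5%, 41.4% and 22.1%. The lists hold no read depth, so the copy number of chromosome 8 in these cells, and its part in these shares and in the ranks of the 3 genes, was not tested. Of the 50 replication and repair genes on other chromosomes, 16 (32.0%) were bound in replicate 1, 30 (60.0%) in replicate 2 and 14 (28.0%) in both, against 15.2%, 29.8% and 11.5% of coding genes there.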
